A study of Mus musculus with 2 samples.

Results

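The genes described here make cholesterol, sense it, or carry, store and export it. They were chosen by symbol from a list of 32 names, of which Sc4mol and Msmo1 are the same gene, listed in the deposited table under the older name. All 31 genes were found among the 23337 symbols of the table. There were 19 synthesis genes, 5 genes of the control system built on the SREBP transcription factors, and 7 genes of efflux, trafficking and storage.

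The levels came from regulatory T (Treg) cells, CD4 T cells that express Foxp3 and hold immune responses in check, sorted from injured leg muscle of male mice aged 8 weeks. The animals were C57BL/6 mice with a green fluorescent reporter linked to Foxp3 (Foxp3-IRES-GFP). In the IL-33 group, muscles received cardiotoxin, a snake toxin that destroys muscle fibres, with 0.3 ug of recombinant IL-33, a cytokine released by damaged tissue. In the PBS group they received cardiotoxin with buffer, and in both groups 5000 Treg cells were sorted 4 days after injury, so no uninjured muscle was part of this comparison. Each group was 1 library, and the labels do not say how many mice it came from. There was therefore no test, p-value or replicate error for any difference, and "higher" and "lower" below describe the IL-33 library relative to the PBS library, not the treatments. Values "with IL-33" and "with PBS" are those of these libraries.

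The IL-33 library held 4080791 counts and the PBS library 1573707. A level is given in counts per 1000000 (CPM), that is, a gene's count divided by its library's total, and a single count was worth 0.245 CPM with IL-33 and 0.635 CPM with PBS. Each ratio of CPM has an exact 95% interval that covers counting error only. The libraries carried the same T cell markers at closely similar summed levels (16243 CPM with IL-33 and 16481 CPM with PBS over 13 markers), but Foxp3 itself had 40 counts with IL-33 and 1 with PBS. Of other cell types, fibroblast markers were at 0 for all 7 genes with IL-33 and summed to 66.1 CPM with PBS, from Col3a1, Dcn and Pdgfra. Dendritic cell markers summed to 21.6 CPM with IL-33 and 21.0 CPM with PBS, but single markers lay on opposite sides, with Siglech at 28 counts with IL-33 and 2 with PBS, Zbtb46 at 18 and 0, and Itgax at 0 and 19. B cell markers summed to 32.3 and 26.7 CPM (mostly Cd79b), neutrophil markers to 4.41 and 5.72 CPM (Csf3r alone) and muscle markers to 0.490 and 2.54 CPM. The muscle genes Ckm, Des, Pax7, Myod1 and Myog, the neutrophil genes S100a8 and S100a9 and the B cell gene Pax5 were at 0 in both. The part of other cells in the results below was not tested. In sorted bulk cells, fewer cells of a type and less RNA per cell cannot be told apart.

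Cholesterol is built from acetyl-CoA through mevalonate, isoprenoid diphosphates, squalene and lanosterol. When the endoplasmic reticulum is low in sterol, Scap escorts the SREBP factors (Srebf1, Srebf2) to the Golgi, where they are cut and released to switch on the synthesis genes, and the Insig proteins hold Scap back when sterol is plentiful. When sterol is in excess, oxysterols activate the liver X receptors (Nr1h2, Nr1h3), which switch on the exporters Abca1 and Abcg1. Isoprenoids of the same route are attached to small GTPases, and T cells need the pathway for growth and, in Treg cells, for suppressive function.

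The promoters of 4 genes are shown because their genes carry the results. Ebp had the highest level per kilobase of transcript in both libraries, and Hsd17b7 had the largest difference. Insig1 encodes a protein that holds Scap back, and Hmgcs1 was the only gene with a match to the sterol response element searched. Each run is the window from 250 bases before to 50 bases after the annotated start, from RefSeq on GRCm38.p6. Capitals mark the sterol response element TCACNCCAC and the box CCAAT, read on either strand, so that ATTGG is a CCAAT box on the other strand.
Hmgcs1 (chr13:119690101-119690400, plus strand): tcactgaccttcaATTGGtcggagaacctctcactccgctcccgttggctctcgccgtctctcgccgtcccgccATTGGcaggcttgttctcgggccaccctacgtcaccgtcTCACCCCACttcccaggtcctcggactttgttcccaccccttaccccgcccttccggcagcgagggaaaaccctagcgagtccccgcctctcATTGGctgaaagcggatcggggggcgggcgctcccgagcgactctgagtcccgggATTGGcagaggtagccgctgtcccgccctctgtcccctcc
Hsd17b7 (chr1:169969156-169969455, minus strand): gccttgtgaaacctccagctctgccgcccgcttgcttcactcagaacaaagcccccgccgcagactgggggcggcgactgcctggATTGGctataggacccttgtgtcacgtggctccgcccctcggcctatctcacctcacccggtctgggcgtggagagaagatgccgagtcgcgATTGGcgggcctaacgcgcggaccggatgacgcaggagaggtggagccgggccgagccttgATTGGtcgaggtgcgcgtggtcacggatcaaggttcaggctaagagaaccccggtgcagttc
Ebp (chrX:8193463-8193762, minus strand): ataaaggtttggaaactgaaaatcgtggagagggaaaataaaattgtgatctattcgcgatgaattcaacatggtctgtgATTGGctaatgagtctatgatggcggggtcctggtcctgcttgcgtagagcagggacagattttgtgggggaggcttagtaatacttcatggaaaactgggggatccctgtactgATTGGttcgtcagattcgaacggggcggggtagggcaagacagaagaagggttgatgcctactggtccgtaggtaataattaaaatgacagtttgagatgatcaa
Insig1 (chr5:28071162-28071461, plus strand): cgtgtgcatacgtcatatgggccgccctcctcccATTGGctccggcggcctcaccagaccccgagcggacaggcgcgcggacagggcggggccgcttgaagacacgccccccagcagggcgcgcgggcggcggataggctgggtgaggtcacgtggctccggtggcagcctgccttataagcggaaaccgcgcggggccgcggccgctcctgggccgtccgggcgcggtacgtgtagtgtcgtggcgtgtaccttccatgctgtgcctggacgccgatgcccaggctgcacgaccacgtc

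A promoter was found for 26 of the 31 genes (none for Fdps, Fdft1, Sqle, Abcg1 and Stard4). The CCAAT box, to which the factor NF-Y binds, was present in 21 of the 26 (80.8%), against 41.1% of 27025 genes searched in the same way. The GC box GGGCGG, to which Sp1 binds, was present in 22 of the 26 (84.6%), against 38.2% of all genes. NF-Y and Sp1 are known partners of the SREBP factors. The element TCACNCCAC was present in 1 of the 26, Hmgcs1, where it begins at position -137 from the start, and in 1.44% of all genes. The 27025 genes were not limited to those over the floor, and no comparison with expressed genes was made. A match or its absence in these windows is a description of the sequence alone.

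Of the 31 genes, 29 stood above a floor of 5 CPM in at least 1 library, and 22 of these were within 2-fold, judged on CPM plus 1. At least 2-fold higher were 6 with IL-33 (Hsd17b7, Mvk, Sqle, Abca1, Ggps1 and Scap), or 20.7%, beside 15.5% of all 9005 genes over the floor. Of these, Hsd17b7, Mvk, Sqle and Abca1 passed the floor through the IL-33 library alone, with 0, 0, 1.27 and 2.54 CPM with PBS. Their place in the count thus rests on the level that makes them higher. Lss and Dhcr7 passed the floor through the PBS library alone and were within 2-fold. A single gene, Insig2, was at least 2-fold lower, or 3.45%, beside 16.3% of all genes. In either direction, 7 of 29 (24.1%) differed by 2-fold, beside 31.8% of all genes. The median log2 fold over the 29 genes was -0.08 on the scale of CPM plus 1, and that of all genes was also -0.08. These shares follow the level: with a mean under 10 CPM, 3 of 8 genes differed by 2-fold, beside 68.5% of all genes in that range, with 10 to 50 CPM 4 of 13 beside 35.3%, and with 50 to 200 CPM 0 of 8 beside 10.9%. By counting error, the interval of the ratio lay above 1 for 9 genes (31%, beside 28.6% of all genes) and below 1 for 4 (13.8%, beside 35.1%). Scaled by trimmed mean of M-values (TMM), Acat2 and Hmgcs1 joined those above 1, making 11 (beside 33.4% of all genes), and 4 lay below 1 (beside 29.7%).

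**Figure D1:**
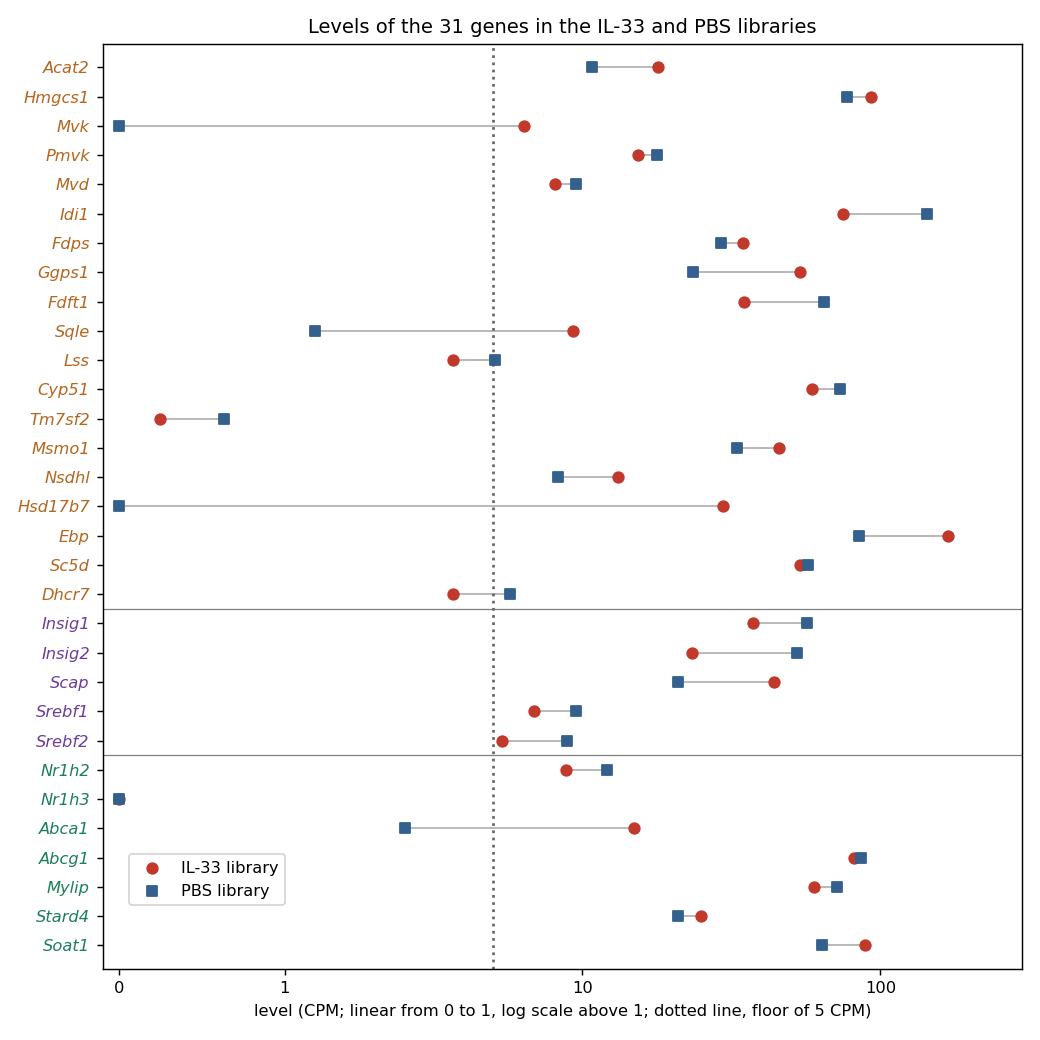
Level in CPM (horizontal, linear up to 1 and logarithmic above) of each of the 31 genes in the IL-33 library (circles) and in that of PBS (squares), with synthesis genes at the top, SREBP control genes in the middle and efflux and trafficking genes at the bottom. Ebp reached 169 CPM with IL-33, Idi1 143 CPM with PBS, and Mvk and Hsd17b7 stood at 0 with PBS.

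At the mevalonate steps Mvk was counted with IL-33 alone, and the other enzymes were within 2-fold. Acat2, the cytosolic thiolase that joins acetyl-CoA units, had 73 counts (17.9 CPM) with IL-33 and 17 counts (10.8 CPM) with PBS, a ratio of 1.66 (0.967 to 3.0). Hmgcs1, which makes HMG-CoA, stood at 93.1 CPM with IL-33 and 77.5 CPM with PBS, a ratio of 1.20 (0.977 to 1.49). Both intervals held 1 by library total, but both lay above 1 under TMM and median-of-ratios scaling, so whether these differences exceeded counting error depended on the scaling. Of the exon bases of Hmgcs1, 16% are shared with Gm48342 on the opposite strand. Mvk, the kinase that phosphorylates mevalonate, had 26 counts with IL-33 and 0 with PBS. With PBS taken at 3 counts (1.91 CPM) it was 3.34-fold higher, and its exact interval begins lower, at 2.53. The next enzymes in line did not share this: Pmvk, the phosphomevalonate kinase, had 15.4 CPM with IL-33 and 17.8 CPM with PBS, and the decarboxylase Mvd 8.09 and 9.53 CPM in the same order. Mvk lay in the level range, a mean under 10 CPM, where 68.5% of all genes differed by 2-fold.

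Among the isoprenoid steps, Idi1 was lower and Ggps1 higher. Idi1, the isomerase that makes dimethylallyl diphosphate, stood at 75.2 CPM with IL-33 (307 counts) and 143 CPM with PBS (225 counts), a ratio of 0.526 (0.442 to 0.628; chromosome 13, 8885501 to 8892451, GRCm38). Ggps1, which makes the geranylgeranyl diphosphate used to anchor small GTPases in membranes, stood at 53.9 CPM with IL-33 (220 counts) and 23.5 CPM with PBS (37 counts), a ratio of 2.29 (1.61 to 3.34; chromosome 13, 14050659 to 14063488). Both differed by more than counting error, as did 28.6% of all genes upward and 35.1% downward. Of the exon bases of Idi1, 10.7% are shared with Gm48574 on the opposite strand. Fdps, the farnesyl diphosphate synthase that lies between them and feeds both sterols and prenyl groups, had a ratio of 1.18 (0.842 to 1.69). An annotated gene on the same strand, Gm43738, shares 77.4% of the exon bases of Fdps, so how the counting treated their reads is uncertain.

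At the committed steps to sterol, Fdft1, the squalene synthase, stood at 34.8 CPM with IL-33 (142 counts) and 64.8 CPM with PBS (102 counts), a ratio of 0.537 (0.413 to 0.699). Of the annotated exon bases of Fdft1, 20.9% are shared with Ctsb on the opposite strand, an abundant gene with 2119 counts with IL-33 and 944 with PBS, and the handling of strand in the counts is not given in the sources used here. Sqle, the squalene epoxidase, had 38 counts with IL-33 and 2 with PBS, a ratio of 7.33 with a wide interval (1.89 to 62.7). Lss, which closes the ring to lanosterol, was thinly counted, at 15 counts with IL-33 and 8 with PBS. The enzymes on either side of squalene thus lay on opposite sides of 1, the thinly counted Sqle above and the better counted Fdft1 below.

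Among the enzymes that turn lanosterol into cholesterol, Ebp and Hsd17b7 differed the most. Hsd17b7 lay in the level range, a mean of 10 to 50 CPM, where 35.3% of all genes differed by 2-fold. Ebp, the sterol isomerase, had 690 counts (169 CPM) with IL-33 and 133 counts (84.5 CPM) with PBS, a ratio of 2.00 (1.66 to 2.43; chromosome X, 8185329 to 8193512). Its log2 fold on the scale of CPM plus 1 was 0.99, just under the 2-fold line, so it is not among the 6 genes counted as higher. Hsd17b7, a ketoreductase of the complex that removes methyl groups from the sterol ring, had 121 counts (29.7 CPM) with IL-33 and 0 with PBS. With PBS taken at 3 counts it was 15.6-fold higher, and its exact interval begins lower, at 12.5 (chromosome 1, 169949535 to 169969241). The other enzymes of that complex differed far less: Msmo1, the methyl oxidase, had a ratio of 1.38 (1.01 to 1.91) and Nsdhl, the decarboxylating dehydrogenase, 1.6 (0.863 to 3.20). Cyp51, the lanosterol demethylase, stood at 59.1 CPM with IL-33 and 73.1 CPM with PBS, a ratio of 0.808 (0.645 to 1.02). Sc5d, the desaturase near the end of the route, had a ratio of 0.938 (0.731 to 1.21) by library total and 1.02 under TMM, and so no settled direction. Dhcr7, a reductase of the final steps, had 15 counts with IL-33 and 9 with PBS. The sterol reductase gene Tm7sf2 had 1 count in each library and lay under the floor.

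**Figure D2:**
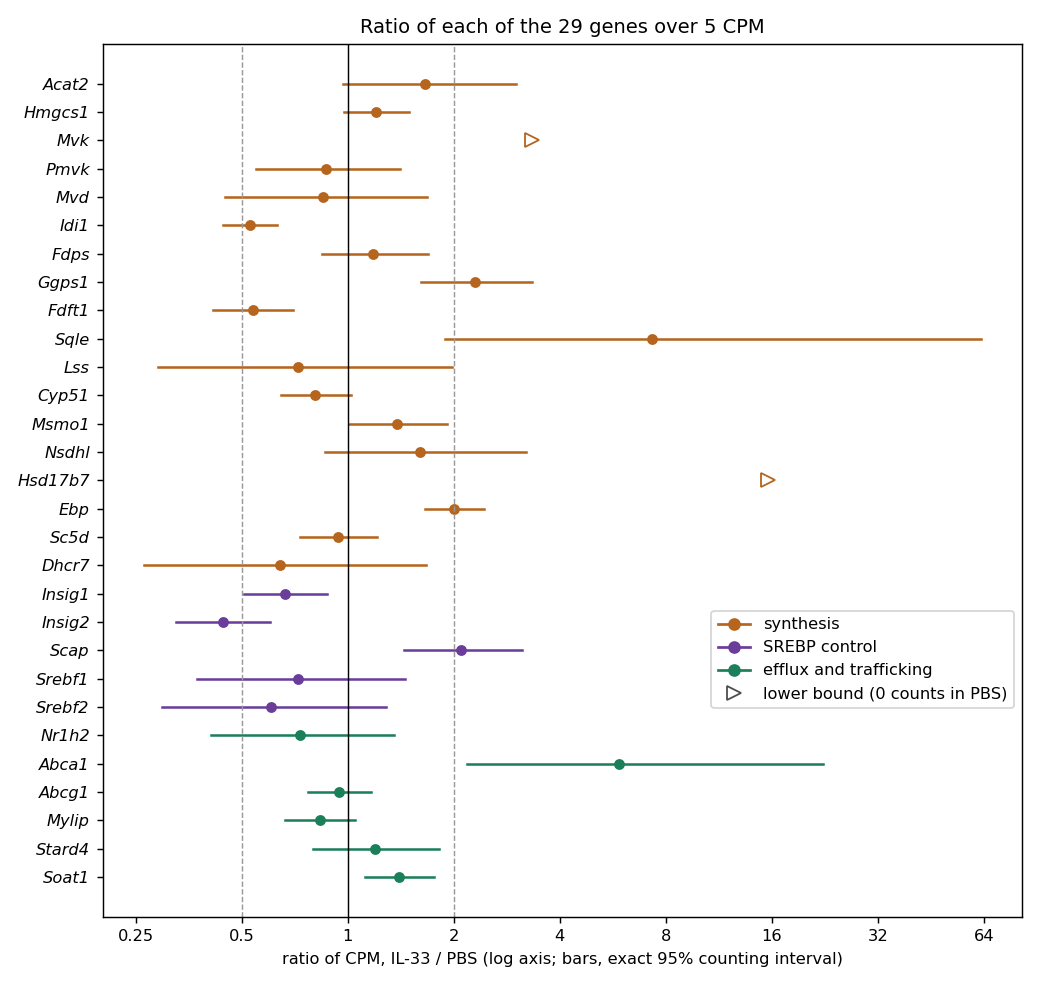
Ratio of CPM, IL-33 library over PBS library (horizontal, log axis) for the 29 genes over the floor, in pathway order, with exact 95% counting intervals as bars and dashed lines at 0.5 and 2. Open triangles are bounds with PBS taken at 3 counts, for Mvk (3.34) and Hsd17b7 (15.6), which had 0 counts with PBS. Exact intervals for these genes would begin lower, at 2.53 and 12.5. The intervals of Idi1, Fdft1, Insig1 and Insig2 lie below 1.

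Summed over the 18 synthesis genes above the floor, the IL-33 library held 726 CPM and the PBS library 644 CPM, a ratio of 1.13 (1.05 to 1.21). The excess was not seen without Ebp, a gene left out after its values were seen, where the sums were 557 CPM with IL-33 and 560 CPM with PBS, a ratio of 0.995 (0.920 to 1.08). Ebp took 23.3% of synthesis counts (exact 95% interval 21.8 to 24.8) with IL-33 and 13.1% (11.1 to 15.4) with PBS. Idi1 took 10.4% (9.28 to 11.5) with IL-33 and 22.2% (19.7 to 24.9) with PBS, so the most counted synthesis gene was Ebp with IL-33 and Idi1 with PBS. By stage, the ratio of sums was 1.22 (1.03 to 1.45) for the mevalonate steps, 0.836 (0.730 to 0.960) for the isoprenoid steps, 0.671 (0.530 to 0.855) for the squalene steps and 1.43 (1.28 to 1.6) for the steps after lanosterol, the last being 1.16 (1.01 to 1.33) without Ebp. The median log2 fold over the 18 genes was 0.25, beside -0.08 for all genes, with 4 higher by 2-fold (22.2%, beside 15.5% of all genes), 0 lower (beside 16.3%) and 10 above 0. Of those higher, Hsd17b7, Mvk and Sqle passed the floor through the IL-33 library alone. The median was 0.07 without Mvk and Hsd17b7 and -0.09 over the 5 genes whose mean reached 50 CPM.

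**Figure D3:**
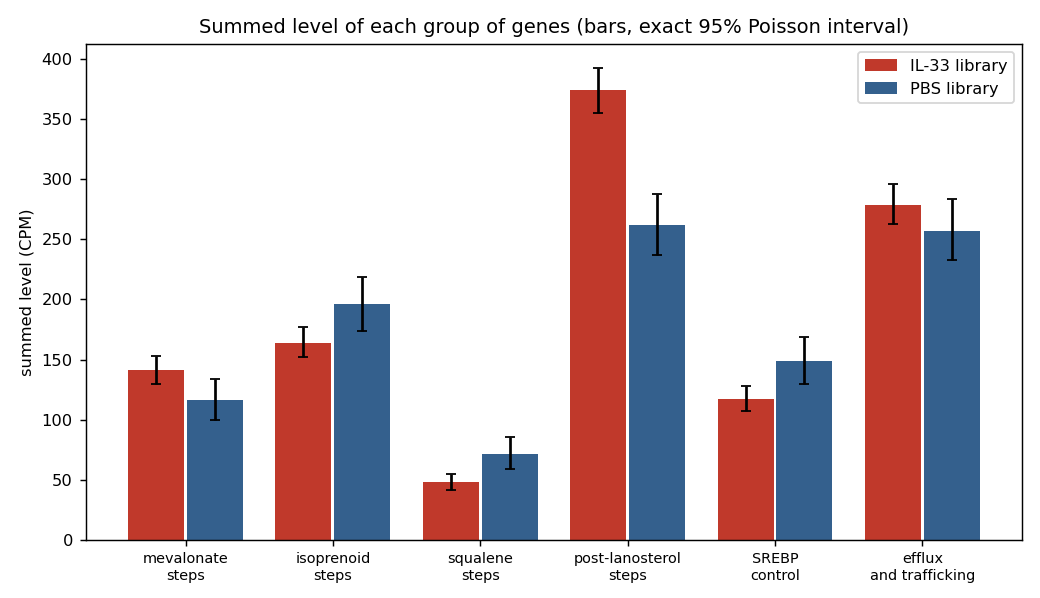
Summed level in CPM of the genes over the floor at each stage of synthesis and in the control and efflux groups, for IL-33 (left bar) and PBS (right bar), with exact 95% Poisson intervals. The steps after lanosterol stood at 374 CPM with IL-33 and 262 CPM with PBS, while the SREBP control genes stood at 117 and 149 CPM.

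Among the SREBP control genes, the Insig genes were lower and the escort Scap was higher. Insig2 stood at 23.3 CPM with IL-33 (95 counts) and 52.7 CPM with PBS (83 counts), a ratio of 0.441 (0.325 to 0.60; chromosome 1, 121304353 to 121332589). Insig1, itself an SREBP target in many cell types, stood at 37.5 CPM with IL-33 (153 counts) and 56.6 CPM with PBS (89 counts), a ratio of 0.663 (0.507 to 0.871; chromosome 5, 28071363 to 28078662). Both Insig genes were lower by more than counting error, as were 35.1% of all genes over the floor. Insig1 made up 61.7% (55.3 to 67.8) of the counts of the pair with IL-33 and 51.7% (44.0 to 59.4) with PBS, and these intervals overlap.

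Scap, the escort that the Insig proteins retain, was on the other side, at 43.9 CPM with IL-33 (179 counts) and 21.0 CPM with PBS (33 counts), a ratio of 2.09 (1.44 to 3.13; chromosome 9, 110333288 to 110384950). A gene on the opposite strand, 5830462I19Rik, shares 18.6% of the annotated exon bases of Scap, so its reads and those of Scap cannot be told apart if strand was not used. The transcription factor genes were thinly counted. Srebf1 had 28 counts with IL-33 and 15 with PBS, a ratio of 0.720 (0.372 to 1.45), and Srebf2 had 22 and 14 counts in the same order, a ratio of 0.606 (0.296 to 1.28). Neither differed by more than counting error at this depth. As a group the 5 genes had a summed ratio of 0.786 (0.671 to 0.923), and 0.572 (0.476 to 0.687) without Scap, which was also left out after its values were seen. The median log2 fold was -0.58, beside -0.08 for all genes, with 1 gene higher and 1 lower by 2-fold (20% each, beside 15.5% and 16.3% of all genes).

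In the efflux and trafficking group, Abca1 alone of 6 genes passed the 2-fold line (16.7%, beside 15.5% of all genes), and its mean was under 10 CPM, where 68.5% of all genes differed by 2-fold. Abca1, which hands cholesterol to lipid-poor apolipoprotein, had 61 counts (14.9 CPM) with IL-33 and 4 counts (2.54 CPM) with PBS, a ratio of 5.88 (2.18 to 22.3; chromosome 4, 53030787 to 53159895). Abcg1, the exporter to mature lipoprotein particles and also a liver X receptor target, was far better counted and near equal, at 81.6 CPM with IL-33 and 86.4 CPM with PBS, with a ratio of 0.944 (0.771 to 1.16) that was 1.03 with TMM scaling. Abca1 made up 15.5% (12.1 to 19.4) of the counts of the 2 exporters with IL-33 and 2.86% (0.784 to 7.15) with PBS. The balance between the exporters thus differed between the libraries by more than counting error, though it rests on 4 Abca1 counts with PBS. No such share was computed for other pairs of genes, so the difference cannot be called particular to the exporters.

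Of the liver X receptors, Nr1h3 had 0 counts in both libraries, taken as up to 0.735 CPM with IL-33 and 1.91 CPM with PBS. Nr1h2, the form found in most cells, had 36 counts with IL-33 and 19 with PBS, a ratio of 0.731 (0.408 to 1.35). Mylip, the liver X receptor-induced ubiquitin ligase that limits lipoprotein uptake, stood at 59.8 CPM with IL-33 and 71.8 CPM with PBS, a ratio of 0.833 (0.664 to 1.05). Soat1, which esterifies cholesterol for storage, stood at 88.7 CPM with IL-33 and 63.5 CPM with PBS, a ratio of 1.4 (1.12 to 1.76; chromosome 1, 156424525 to 156474331). Stard4, a soluble sterol carrier, had a ratio of 1.19 (0.798 to 1.82). The summed ratio of the 6 genes over the floor was 1.08 (0.967 to 1.22) and their median log2 fold was 0.08. Macrophages are rich in Nr1h3, Abca1 and Abcg1. Of 14 macrophage and monocyte markers, 11 had a count in either library, their summed level was 54.2 CPM with IL-33 and 73.7 CPM with PBS, and Cd68, Fcgr1 and Mertk were at 0 in both. The markers lay on both sides: Lyz2 had 78 counts with IL-33 and 61 with PBS (ratio 0.493, 0.348 to 0.701) and Ms4a7 had 0 and 25, while Itgam had 66 and 12 (ratio 2.12, 1.14 to 4.31) and Mrc1 had 17 and 0, so that Itgam and Mrc1 were higher with Abca1. The part of such cells in the Abca1 counts was not tested.

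Set side by side, synthesis made up 64.7% (63.3 to 66.1) of the counts of all members with IL-33 and 61.3% (58.9 to 63.7) with PBS. SREBP control made up 10.4% (9.55 to 11.3) with IL-33 and 14.2% (12.5 to 15.9) with PBS, and these intervals do not overlap. Differences beyond counting error were common: the interval of the ratio lay above 1 for 28.6% and below 1 for 35.1% of all genes over the floor. No such share was computed for other groups of genes. The counts of all members include Ebp, at 690 with IL-33 and 133 with PBS. Efflux and trafficking made up 24.9% (23.6 to 26.1) with IL-33 and 24.5% (22.4 to 26.6) with PBS. The shares do not depend on how the libraries are scaled, and their intervals cover counting error alone.

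Per kilobase of transcript, Ebp had the highest level in both libraries, at 97.0 CPM per kb with IL-33 and 48.5 CPM per kb with PBS. The next level with IL-33 was that of Hmgcs1, at 27.8 CPM per kb, and with PBS that of Idi1, at 47.2 CPM per kb. Insig2 was at rank 10 of 29 with IL-33 and at rank 3 with PBS, with 18.6 and 42.1 CPM per kb. Among the lowest in both were Lss (0.788 CPM per kb with IL-33 and 1.09 with PBS) and Srebf2 (1.18 and 1.95). Across the 29 genes, which share the same 2 libraries and are not independent, the levels per kb had a Spearman rank correlation of 0.86 between libraries. Across them the log2 fold had a rank correlation of -0.06 with transcript length and -0.11 with mean CPM.

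**Figure D4:**
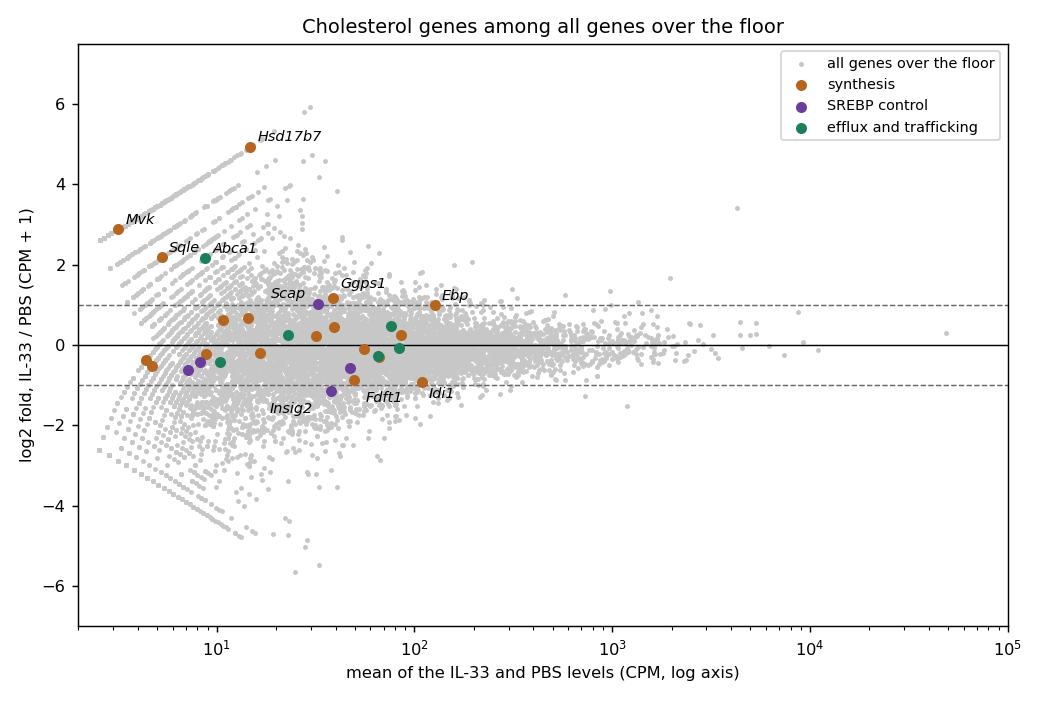
Log2 fold of the IL-33 over the PBS library on CPM plus 1 (vertical) against the mean level in CPM (horizontal, log axis) for the 9005 genes over the floor (grey), with the 29 cholesterol genes coloured by group. Those that pass the dashed 2-fold lines have a mean under 50 CPM, where the grey points also spread widely, and Ebp and Idi1 lie near the lines at higher levels.

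The genes that process SREBP and destroy sterol-regulated proteins showed no common direction. Of 11 over the floor, 2 were higher by 2-fold (18.2%, beside 15.5% of all genes) and 2 lower (18.2%, beside 16.3%), and the median log2 fold was 0.20. Sec23a, a coat protein of the vesicles that carry Scap to the Golgi, stood at 78.9 CPM with IL-33 and 26.1 CPM with PBS, a ratio of 3.03 (2.18 to 4.30). Mbtps2, a protease that releases SREBP, had 38 counts with IL-33 and 1 with PBS, a ratio of 14.7 (2.48 to 594). Erlin1, an endoplasmic reticulum protein that binds cholesterol, had 0 counts with IL-33 and 14 with PBS. It was 12.1-fold lower with IL-33 taken at 3 counts, and the exact interval of its ratio reaches up to 0.116. The ubiquitin-conjugating enzyme gene Ube2g2 had a ratio of 0.444 (0.294 to 0.674). Faf2, which helps extract proteins for degradation, had a ratio of 1.21 (1.0 to 1.48).

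Some of the fatty acid genes under SREBP control were lower. Of 13 listed genes 7 were over the floor, of which 0 were higher by 2-fold and 3 were lower (42.9%, beside 16.3% of all genes), the interval lay below 1 for 5 (71.4%, beside 35.1% of all genes), and the median log2 fold was -0.74 beside -0.08 for all genes. Scd2, a fatty acid desaturase, stood at 37.0 CPM with IL-33 and 96.0 CPM with PBS, with 151 counts in each, a ratio of 0.386 (0.306 to 0.486). Fads1, another desaturase, had 10 counts with IL-33 and 16 with PBS, a ratio of 0.241 (0.0978 to 0.565). Acly, which supplies cytosolic acetyl-CoA to both pathways, stood at 235 CPM with IL-33 and 356 CPM with PBS, a ratio of 0.659 (0.593 to 0.733). Elovl5, a fatty acid elongase, and Acaca, which makes malonyl-CoA, had ratios of 1.09 (0.963 to 1.23) and 0.903 (0.601 to 1.38). The summed ratio of the 7 genes was 0.698 (0.654 to 0.745), beside 1.13 (1.05 to 1.21) for the cholesterol synthesis genes. The latter was 0.995 (0.920 to 1.08) without Ebp, left out after its values were seen, and 1.03 over genes whose mean reached 50 CPM. In the fatty acid sum, Acly and Elovl5 gave 957 and 1012 of 2568 counts with IL-33, and 560 and 359 of 1419 with PBS.

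Genes that use isoprenoids were divided. Of 11 over the floor, 3 were higher by 2-fold (27.3%, beside 15.5% of all genes) and 2 lower (18.2%, beside 16.3%), with a median log2 fold of 0.39. Those higher were Pggt1b, the catalytic subunit of the enzyme that attaches the product of Ggps1 to proteins, at 115 counts with IL-33 and 2 with PBS (ratio 22.2, 6.00 to 185), and Dhdds and Nus1, the subunits of the enzyme that makes dolichol chains. Nus1 stood at 121 CPM with IL-33 and 55.9 CPM with PBS, a ratio of 2.16 (1.72 to 2.74), and Dhdds had a ratio of 2.70 (1.34 to 6.17). Those lower were Icmt, which methylates prenylated proteins, at 0.307 (0.196 to 0.477), and Coq2, of ubiquinone synthesis, at 0.309 (0.221 to 0.429). Zmpste24, a protease of prenylated proteins, had a ratio of 0.756 (0.628 to 0.912).

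Genes of sterol trafficking, storage and oxysterols had a median log2 fold of 0.04 over 14 genes, with 4 higher by 2-fold (28.6%, beside 15.5% of all genes) and 3 lower (21.4%, beside 16.3%). The retinoid X receptor genes, whose products pair with the liver X receptors, lay on opposite sides: Rxra had 61 counts with IL-33 and 1 with PBS (ratio 23.5, 4.07 to 944), and Rxrb had 9 counts with IL-33 and 14 with PBS (ratio 0.248, 0.0947 to 0.615). Gramd1c, of a family that moves sterol from the plasma membrane, had 72 counts with IL-33 and 3 with PBS, a ratio of 9.26 (3.04 to 45.9). Stard3, a sterol carrier of late endosomes, had 29 counts with IL-33 and 50 with PBS, a ratio of 0.224 (0.136 to 0.36). Osbpl9, a lipid-binding protein gene, and Vps35, of the retromer, were the most expressed, with ratios of 0.694 (0.623 to 0.774) and 1.57 (1.30 to 1.89). The oxysterol enzymes Ch25h, Cyp27a1 and Cyp7b1 had 0 counts in both libraries.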

How the data were processed

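The authors deposited raw counts, whole numbers per gene symbol, in 1 table. TopHat2 2.0.10, Cufflinks 2.2.1 and the mm10 build are named in the submitters' processing notes. The counting program, annotation and strand setting were not given in the sources used here. Per the labels' protocols, poly(A) RNA was amplified as cDNA, fragmented with a transposon and read as pairs of 25 bp, and no molecular identifiers are named, so intervals and floors cover counting error only. Both columns were used, and 0 rows were without a gene name.

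CPM used the library total. Log2 folds used CPM plus 1 for genes with 5 CPM or more in at least 1 library, which understates low genes' differences. Ratios have exact conditional (Clopper-Pearson) 95% intervals. A count of 0 was taken as up to 3 counts. The folds given against such a count leave out the counting error of the other library. Named were all members and, of each wider list, the 2 most expressed, 2 highest and 2 lowest genes, apart from a gene that is not reported here. Markers of other cell types were looked up by list, and 1 T cell marker was not matched. Members and lists were chosen with earlier results of these data known. Coordinates, exon overlaps and the median length of protein-coding transcripts came from GENCODE M21 (GRCm38). The calls were run on simulated counts that held counting error alone, with changes set in genes of 20 CPM or more. That run does not check the calls of thinly counted genes such as Mvk, Sqle and Abca1. Tools were Python 3.11.15, numpy 2.4.6, pandas 2.3.3, scipy 1.17.1, matplotlib 3.10.9, R 4.3.3 and edgeR 4.0.16 (TMM factors alone). Alternatives were scaling, floor, pseudocount, threshold and leaving out genes at 0.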

Additional observations from a re-analysis of the deposited data

How the results depend on the processing

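No paired analysis was possible because each group held 1 library, and for the same reason no replicate could be left out. TMM scaling added 0.12 to the log2 of every CPM ratio and median-of-ratios scaling 0.11. On the scale of CPM plus 1 the shift was smaller for low genes. The ratio of summed synthesis CPM was 1.23 with TMM and 1.22 with median-of-ratios scaling, in place of 1.13. With these scalings, and with the total without the 50 most abundant genes, Ebp passed the 2-fold line, giving 5 higher of the 17 synthesis genes then over the floor, while 17.9% of all genes were higher under TMM. Under TMM, Sc5d and Abcg1 turned to ratios of 1.02 and 1.03. The 4 synthesis genes counted as 2-fold higher became 2 at a floor of 20 CPM, 2 without genes at 0 counts in a library, 0 among genes whose mean reached 50 CPM, and 7 at a 1.5-fold threshold, where 2 were lower in place of 0. Over genes whose mean reached 50 CPM the summed synthesis ratio was 1.03. Leaving out Ebp or Scap was chosen after seeing the data. Without Ebp the summed synthesis ratio was 0.995, on the other side of 1 but with an interval that holds 1, and that of the steps after lanosterol 1.16 in place of 1.43. Without Scap the SREBP control ratio was 0.572 in place of 0.786. In SREBP control, the 1 higher gene, Scap, became 0 with a pseudocount of 5 or a 4-fold threshold, and the 1 lower gene, Insig2, became 0 at 4-fold and 2 at 1.5-fold. In efflux, the 1 higher gene, Abca1, became 0 at a floor of 20 CPM or a mean of 50 CPM. SREBP control had no gene with a mean of 50 CPM, so that setting gave no value. The other 102 values by group stayed within the limits set for them, which allow small changes of direction. So did all 56 values by gene, but these were ratios under TMM and median-of-ratios scaling alone. Each scaling changes every ratio by the same factor, so these values could not test how firm a single gene's ratio is. Genes without a ratio, such as Mvk and Hsd17b7, were not among them. Over genes whose mean reached 50 CPM, the median log2 fold of efflux went from 0.08 to -0.08. That of synthesis went from 0.25 to -0.09. Members with a mean under 10 CPM had 15 counts or fewer with PBS, which limits their precision.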
